A study of Mus musculus with 6 samples.

Results

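The genes described here are 10 targets of the transcription factor ATF4 that import amino acids or make serine, asparagine and one-carbon units: Slc7a5, Slc3a2, Slc7a11, Slc7a3, Asns, Psat1, Phgdh, Shmt2, Mthfd2 and Aldh1l2. They were chosen by symbol in the GENCODE M21 annotation, as 10 of the 55450 genes in the count tables. Each symbol matched 1 gene, and all 10 genes passed the filter on low counts. All 10 are protein-coding, lie on the minus strand of GRCm38 and share no exon bases with another gene on that strand. Long RNA of total mouse brain was sequenced in 6 libraries, 3 from TRMT1L KO and 3 from wild-type (WT) samples. TRMT1L is a relative of TRMT1, an enzyme that methylates tRNA, and the labels name no further allele or treatment in either group. How the KO allele was made, whether animals were pooled, and the strain, age and sex are not given in the sources used here. The design names biological triplicates but does not say that each library is 1 animal, so p-values measure the spread between these libraries.

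ATF4 is the central transcription factor of the integrated stress response. When amino acids run short, uncharged tRNA activates the kinase GCN2, which phosphorylates eIF2 and favours translation of Atf4 mRNA, and other eIF2 kinases do the same under other stresses. ATF4 then binds C/EBP-ATF response elements with C/EBP partners and raises transcription of transporters and biosynthetic enzymes. In brain, the light and heavy chains Slc7a5 and Slc3a2 carry large neutral amino acids across the endothelium, and serine is made largely by astrocytes, which are rich in Phgdh.

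The sequence that ATF4 and its partners recognise was sought in the promoters, because it is the feature by which such genes are usually recognised. The motif was TGATGNAA, on both strands, where N is any base, in windows from 250 bases before to 50 after the RefSeq start (GRCm38.p6). Of 32851 such windows, 3.97% held it, and of 27025 genes, 4.51% had a window that did. Promoters were found for 7 members, all but Slc7a5, Slc7a3 and Aldh1l2, and 2 of the 7 held the motif, Slc7a11 and Asns. A match is a run of letters, not a shown binding site, and windows without one may hold elements elsewhere in the gene. The stretch before the start of Slc7a11, which encodes the cystine-glutamate exchanger light chain, is shown because it holds 2 copies facing each other with 11 bases between them. It lies at chr3:50443615-50443863 on the minus strand, and capitals mark the motif, the second copy being read on the opposite strand.
Slc7a11: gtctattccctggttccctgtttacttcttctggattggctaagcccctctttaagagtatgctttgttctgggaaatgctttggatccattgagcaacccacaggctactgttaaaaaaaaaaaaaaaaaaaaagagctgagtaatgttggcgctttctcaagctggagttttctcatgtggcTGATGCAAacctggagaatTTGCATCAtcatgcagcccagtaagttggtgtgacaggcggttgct

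Short stretches with 10 bases on either side of the motif are shown for Asns, which makes asparagine. They are also shown for 4 genes of the wider ATF4 response, so that the shared letters can be compared. The 4 are a choice among 7 genes of that list with the motif. Copies not shown include TGATGTAA in Trib3, which lies after the start, and TGATGCAA in Vldlr. The Asns copy spans bases -23 to -16 from the start, and the stretch shown lies at chr6:7693215-7693242 on the minus strand. The stretches of Atf3 (chr1:191183426-191183453, plus strand), Nupr1 (chr7:126625563-126625590, plus), Chac1 (chr2:119351039-119351066, minus) and Jdp2 (chr12:85599373-85599400, plus) are printed on the strand that reads TGATGNAA, with the motif in capitals.
Asns: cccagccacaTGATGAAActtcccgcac
Atf3: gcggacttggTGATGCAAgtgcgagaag
Nupr1: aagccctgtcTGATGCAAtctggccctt
Chac1: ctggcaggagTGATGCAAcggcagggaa
Jdp2: tagccggggcTGATGCAAcccgtcccgc
In all, 7 of the 19 ATF4 and stress response genes outside the members with a promoter in the table held the motif. The counts were 2 of 25 for other amino acid transporters, 2 of 12 for genes of asparagine, aspartate, glutamine, proline and cysteine synthesis and 0 of 20 for other serine, glycine and folate genes.

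Counts in genes ranged from 31201119 to 36145961 per library. The share of mapped reads that fell in no gene was 51.0%, 52.2% and 50.3% for WT, against 49.3%, 49.8% and 48.6% for KO, without overlap and lowest in KO library 3, and its part in the members' values was not tested. Trmt1l stood at 33.0 to 35.2 CPM (counts scaled to a common library total) in WT and 2.67 to 3.0 in KO libraries. Its log2 fold change was -3.58 (SE 0.0813), with edgeR's adjusted p = 6.95e-10, so each library lay on the side its label gives. Across 21237 genes tested with edgeR's quasi-likelihood test and Benjamini-Hochberg adjustment, 2 had an adjusted p-value under 0.05, or 0.00942%, and both were lower in KO. None of the 10 members passed that threshold, with adjusted p-values from 0.550 to 0.945. KO library 3 stood apart from the others for several genes, so values without it are given for several genes below.

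All 10 members had a positive log2 fold change of KO over WT, from 0.06 for Slc7a11 and Asns to 0.46 for Slc7a5, with a median of 0.209, where 50.1% of all genes tested were positive and their median was 0.000137. At an unadjusted p-value under 0.05, 7 members were higher and 0 lower in KO, where 4.54% of all genes tested were higher. For 6 members every KO library lay above every WT library, as for 7.47% of all genes. Leaving out KO library 3 left 9 members positive, with a median of 0.147. At an unadjusted p-value under 0.05, 4 were then higher (Slc7a5, Slc3a2, Shmt2 and Mthfd2) and Slc7a11 was lower (edgeR unadjusted p = 0.0332). Leaving out WT library 3 left the same 4 higher at that threshold. The members were picked as genes that move with ATF4 and with results of these libraries known, so their shared direction is a description. In bulk tissue such as this, more cells of a type and more RNA per cell cannot be told apart.

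**Figure D1:**
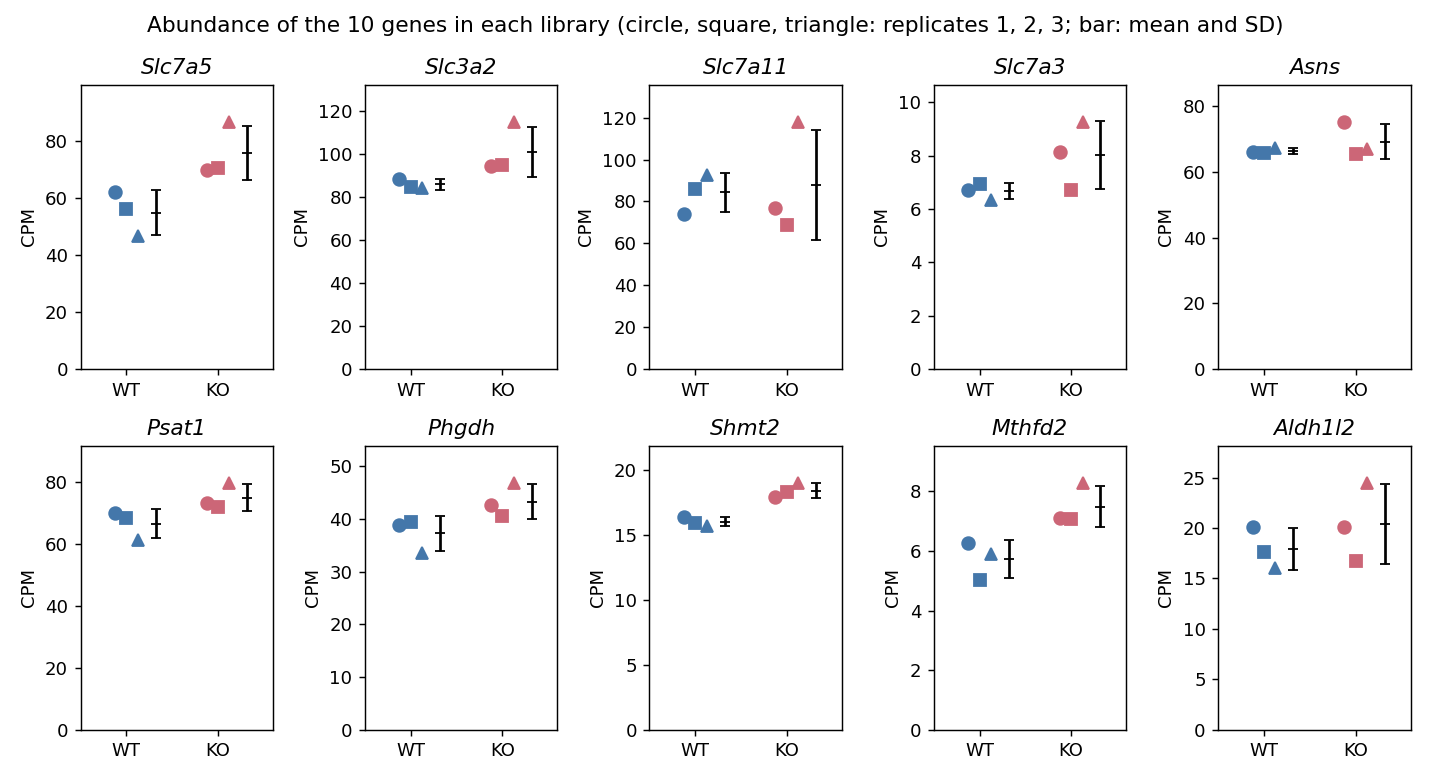
Abundance in CPM, on linear axes that start at 0, of each of the 10 genes in the 3 WT (blue) and 3 KO (red) libraries, with the mean and SD of each group in black. Slc7a5 shows the widest gap, 46.6 to 62.1 CPM in WT against 70.0 to 86.7 in KO, while the groups overlap for Slc7a11, Slc7a3, Asns and Aldh1l2.

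Among the transporters, Slc7a5 encodes LAT1, the light chain that exchanges leucine and other large neutral amino acids (ENSMUSG00000040010.10, chromosome 8 from 121881150 to 121907694). In order of replicate number, here and for the genes that follow, the WT libraries held 62.1, 56.0 and 46.6 CPM and the KO libraries 70.0, 70.7 and 86.7 CPM. Every KO library was above every WT library, and the lowest KO and highest WT library were 70.0 and 62.1 CPM. The KO mean, 75.8 ± 9.46 CPM, was 38.0% above the WT mean of 54.9 ± 7.78 (SD, n = 3 each), and the log2 fold change was 0.46 (SE 0.103; unadjusted p = 0.000806, edgeR adjusted p = 0.550), or 0.36 without KO library 3. Of all genes tested it ranked 30 by p-value, and 98.3% of them had a lower or equal fold change. DESeq2's Wald test gave the same fold change with an adjusted p-value of 0.00157. Slc7a5 was the 1 member called by that tool, which called 26 genes in all and gave no adjusted p-value for 5 members. Over all alternatives the adjusted p-value of Slc7a5 ran from 5.34e-12 to 1.

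Slc3a2 (ENSMUSG00000010095.13, chromosome 19 from 8706882 to 8723369) encodes 4F2hc (CD98), the heavy chain that holds LAT1 and several other light chains at the membrane. Its values were 88.6, 84.6 and 84.4 CPM in the WT libraries and 94.3, 94.8 and 115 CPM in the KO libraries. The groups did not overlap, but KO library 3 stood well above the other 2. The log2 fold change was 0.24 (SE 0.0709; edgeR adjusted p = 0.576), and 0.14 without KO library 3. Per kilobase of exon, WT brain held 24.3 ± 0.673 CPM of Slc3a2 and 14.8 ± 2.10 of Slc7a5, and KO brain 28.7 ± 3.26 and 20.4 ± 2.55 (SD, n = 3).

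Slc7a11 encodes xCT, which pairs with the same heavy chain and imports cystine in exchange for glutamate. It was at 74.1, 85.8 and 92.9 CPM in the WT libraries and at 76.9, 68.7 and 118 CPM in the KO libraries. KO library 3 was the highest of the 6 and KO library 2 the lowest, so the KO values enclosed the WT values. The log2 fold change was 0.06 (SE 0.160, edgeR adjusted p = 0.945). It turned to -0.21 without KO library 3 (edgeR unadjusted p = 0.0332, adjusted p = 0.595) and to -0.022 without WT library 1. Slc7a3 encodes CAT3, a carrier of arginine and lysine. This gene had 6.70, 6.95 and 6.35 CPM in WT and 8.14, 6.71 and 9.26 CPM in KO, where KO library 2 lay within the WT range. The log2 fold change was 0.27 (SE 0.123; unadjusted p = 0.0492, edgeR adjusted p = 0.628), and 0.16 without KO library 3.

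Asns, asparagine synthetase, is a classical ATF4 target. It was at 66.1, 65.6 and 67.3 CPM in WT libraries and 75.2, 65.3 and 67.1 CPM in KO libraries. KO library 1 was above the rest, and the other 2 KO libraries did not exceed the WT range. The log2 fold change was 0.06 (SE 0.0587; edgeR adjusted p = 0.820), and without KO library 1 it was -0.0036. Slc7a11 and Asns, the members whose motifs are printed above, had the smallest fold changes of the 10. The promoters of Slc7a5, Slc7a3 and Aldh1l2 were not searched, and a link between motif and fold change was not tested.

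Serine is made from a glycolytic intermediate by Phgdh, Psat1 and Psph in turn. Phgdh, the first enzyme, was at 38.9, 39.5 and 33.5 CPM in WT and 42.6, 40.5 and 46.9 CPM in KO. The KO libraries were all above the WT libraries, but KO library 2 exceeded WT library 2 by little. Its log2 fold change was 0.22 (SE 0.0761; unadjusted p = 0.0154, edgeR adjusted p = 0.579), and 0.14 with a correction for GC content. The annotation holds 18 genes, mostly processed pseudogenes, that match Phgdh at 90% identity or more over at least 200 bases, and whose counts came to 9.71% of those of Phgdh itself. Of these, Phgdh-ps1 held 704 counts over all libraries, so reads could have been divided or lost between them and the level of Phgdh is uncertain.

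Psat1, the aminotransferase of the second step, was at 70.0, 68.4 and 61.3 CPM in WT and 73.3, 72.0 and 79.9 CPM in KO. The highest WT and lowest KO library differed by less than the spread within either group. The log2 fold change was 0.17 (SE 0.0628; unadjusted p = 0.0178, edgeR adjusted p = 0.579). Psph, the phosphatase of the last step, had 7.69, 7.81 and 7.29 CPM in WT and 8.34, 9.59 and 8.24 CPM in KO (log2 fold change 0.20, SE 0.0994, edgeR adjusted p = 0.649). Each of the 3 genes had every KO library above every WT library, as 7.47% of all genes had, and none passed the threshold.

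The remaining members belong to mitochondrial folate metabolism, which takes a one-carbon unit from serine. Shmt2 (ENSMUSG00000025403.5, chromosome 10 from 127517123 to 127522444) splits serine into glycine and a folate-bound carbon. An exon of Ndufa4l2 overlaps it on the opposite strand, which the stranded counts keep apart. Its values were 16.4, 15.9 and 15.7 CPM in WT and 17.9, 18.3 and 19.0 CPM in KO. Both groups were tight, with means of 16.0 ± 0.360 and 18.4 ± 0.587 CPM (SD, n = 3), and did not overlap. The log2 fold change was 0.20 (SE 0.0667; unadjusted p = 0.0112, edgeR adjusted p = 0.579), 0.18 without KO library 3, and 0.12 with GC correction.

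Mthfd2 (ENSMUSG00000005667.8, chromosome 6 from 83305691 to 83325908), which oxidises the folate-bound carbon in mitochondria, is low in most adult tissues. It had 6.26, 5.04 and 5.89 CPM in WT and 7.10, 7.06 and 8.29 CPM in KO, from 158 to 300 counts per library. The KO mean was 30.7% above the WT mean, and the groups did not overlap. Its log2 fold change of 0.38 was the second highest of the members (SE 0.118; unadjusted p = 0.00728, edgeR adjusted p = 0.576), and it was 0.30 without KO library 3. Aldh1l2, which burns formyl-folate to carbon dioxide in mitochondria, was at 20.1, 17.6 and 16.0 CPM in WT and 20.1, 16.7 and 24.5 CPM in KO. KO library 2 lay below 2 WT libraries, and the log2 fold change was 0.19 (SE 0.127; edgeR adjusted p = 0.736), or 0.04 without KO library 3.

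Relatives of the members gave values for comparison. Shmt1, the cytosolic counterpart of Shmt2, stood at 0.13 on the log2 scale (SE 0.177), and the mitochondrial enzymes Mthfd2l and Mthfd1l had 0.01 (SE 0.101) and 0.07 (SE 0.0992), with edgeR adjusted p-values of 0.878, 0.986 and 0.883. Aldh1l1, the cytosolic counterpart of Aldh1l2 and an astrocyte marker, was at 50.4 to 56.1 CPM in WT and 57.6 to 61.5 CPM in KO, without overlap (log2 fold change 0.18, SE 0.0560, edgeR adjusted p = 0.576). The light chains Slc7a8 and Slc7a10, which also pair with Slc3a2, had 0.01 (SE 0.0899) and -0.02 (SE 0.0684). Differences between a member and its relative were not tested.

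Per kilobase of exon in WT, the order of levels was Slc3a2 (24.3 ± 0.673 CPM), Asns (24.2 ± 0.317), Psat1 (15.6 ± 1.09), Phgdh (15.0 ± 1.34), Slc7a5 (14.8 ± 2.10), Slc7a11 (6.05 ± 0.680), Shmt2 (5.15 ± 0.116), Aldh1l2 (2.39 ± 0.278), Slc7a3 (1.76 ± 0.0800) and Mthfd2 (1.64 ± 0.180; SD, n = 3). Slc3a2 and Asns did not differ beyond their spread, nor did Psat1, Phgdh and Slc7a5, nor Slc7a3 and Mthfd2. Exons of all transcripts were joined for the length, so a gene with long rare exons, such as Slc7a11 at 13922 bases, reads low on this scale. In KO, Slc7a5 at 20.4 ± 2.55 CPM per kilobase had a mean above Psat1 (17.6 ± 0.998) and Phgdh (17.4 ± 1.32), a change of order within overlapping spreads.

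The members were then compared library by library. Relative to the WT mean on the log2(CPM + 0.5) scale, the median over the 10 members ran 0.06, 0.01, -0.05 through the WT libraries and 0.18, 0.12, 0.43 through the KO libraries. All 10 members were above the WT mean in KO library 3, 9 in KO library 1 and 7 in KO library 2. For WT libraries 1, 2 and 3 the numbers were 8, 5 and 3. The highest member in each KO library was Slc7a5. Over the 6 libraries the members' log2 levels correlated with each other at a median Pearson r of 0.76 over 45 pairs, and 0.66 after each group's mean was taken away, with 38 of the 45 pairs positive. These points share the libraries and their scaling, and no test was made of them.

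**Figure D2:**
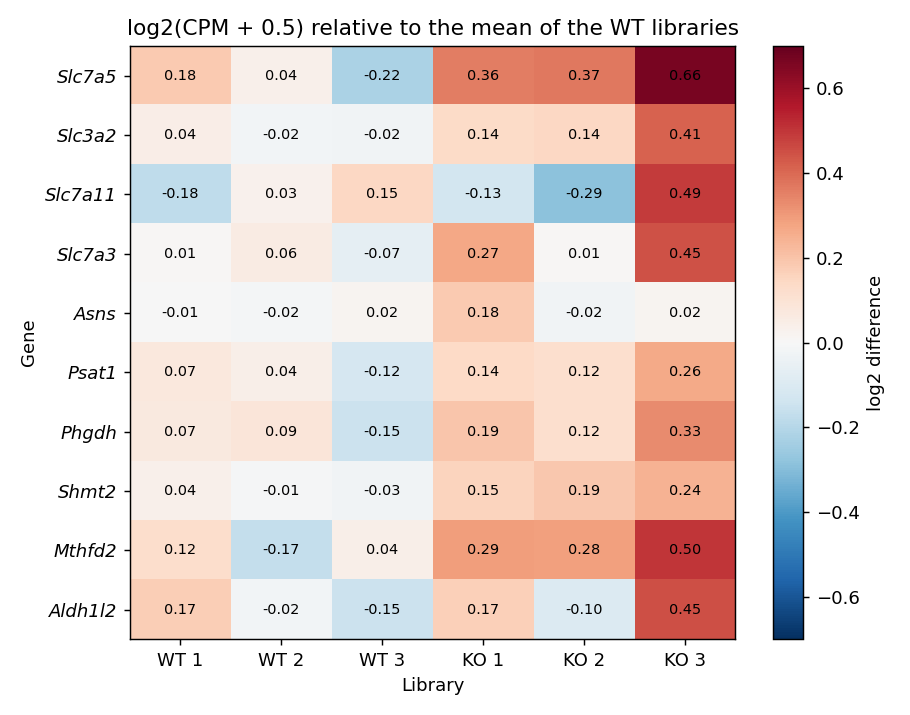
Each gene (rows) in each library (columns), as log2(CPM + 0.5) minus the mean of the WT libraries; red is above and blue below that mean. KO library 3 is positive throughout, from 0.02 for Asns to 0.66 for Slc7a5, whereas Slc7a11 is negative in KO libraries 1 and 2.

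Atf4 mRNA, the transcript of the regulator, was at 61.1, 57.7 and 56.0 CPM in WT and 75.5, 65.1 and 64.8 CPM in KO. The groups did not overlap, and the log2 fold change was 0.23 (SE 0.0665; unadjusted p = 0.00478, edgeR adjusted p = 0.576), or 0.15 without KO library 1. KO library 1 held the most Atf4 mRNA, as it did for Asns, while KO library 3 was the lowest KO library for Atf4 and the highest for 9 of the 10 members. ATF4 is controlled largely at translation, and the protein was not measured in these libraries.

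The wider ATF4 and stress response list, which includes Atf4 itself, was compared next. Of 22 listed, 20 were tested, 18 had a positive fold change, against 50.1% of all genes, and the median was 0.312, or 0.249 without KO library 3. At an unadjusted p-value under 0.05, 11 were higher and 1 lower in KO, against 4.54% and 3.38% of all genes, and 0 passed after adjustment. Without a filter on low counts 9 of the list passed, Atf4 among them (edgeR adjusted p = 0.0147), where 298 of all genes did. Sesn2, which restrains mTORC1 when leucine is scarce, had 8.93 to 9.94 CPM in WT and 11.6 to 13.6 in KO (log2 fold change 0.41, SE 0.0927, edgeR adjusted p = 0.550). Nupr1, a small stress-induced chromatin protein, had 2.72 to 3.38 CPM in WT and 3.91, 3.80 and 7.74 in KO (0.73, SE 0.249, edgeR adjusted p = 0.579), with KO library 3 far above the rest and a log2 fold change of 0.31 without it. Vldlr, a lipoprotein receptor, had the lowest value of the list at -0.12 (SE 0.0509, edgeR adjusted p = 0.614), with every KO library below every WT library, as for 6.97% of all genes.

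Amino acid transporters outside the 10 were split in direction. Of 33 tested, 19 were positive and 14 negative, the median was 0.014, and at an unadjusted p-value under 0.05, 3 were higher and 2 lower, against 4.54% higher and 3.38% lower among all genes. Slc1a5, the glutamine carrier ASCT2, was at 1.63 to 2.22 CPM in WT and at 2.59, 2.88 and 6.11 CPM in KO (log2 fold change 0.95, SE 0.296, edgeR adjusted p = 0.576), again with KO library 3 far above the rest and 0.45 without it. The cationic amino acid carriers Slc7a2 and Slc7a1 had log2 fold changes of 0.18 (SE 0.0613) and 0.17 (SE 0.0591), and Slc38a5, a glutamine carrier, had the lowest at -0.32 (SE 0.223). Their edgeR adjusted p-values were 0.579, 0.579 and 0.753.

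Among 22 tested genes of serine, glycine and folate metabolism outside the members, 17 were positive with a median of 0.044. With 1 library left out, that median ran from 0.019 (without WT library 3) to 0.06 (without KO library 2). At an unadjusted p-value under 0.05, 1 gene, Aldh1l1, was higher. Of all genes, 50.1% were positive and 4.54% higher, so that 1 of 22 is near the background. Slc25a32, the mitochondrial folate carrier, had 0.19 (SE 0.125), and the lowest was Srr, which makes D-serine, at -0.06 (SE 0.0518). Of 18 tested genes of asparagine, aspartate, glutamine, proline and cysteine synthesis, 16 were positive with a median of 0.138. This median ran from 0.088 (without KO library 2) to 0.166 (without KO library 1). By the same unadjusted threshold 3 of the genes were higher, to be read against the same shares. They include the proline synthesis gene Aldh18a1 (23.5 to 25.7 CPM in WT, 25.9 to 30.1 in KO, log2 fold change 0.18, SE 0.0714). Another is the alanine aminotransferase Gpt2 (0.29, SE 0.119), which is also in the stress response list. Gpt2 was at 43.1 to 46.3 CPM in WT and at 48.4, 69.6 and 47.9 in KO, with KO library 2 far above the rest. None of these passed after adjustment, with edgeR adjusted p-values of 0.576 or more in both lists. Without a filter on low counts, 1 gene of the synthesis list and 1 of the transporters passed, where 298 of all genes did.

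**Figure D3:**
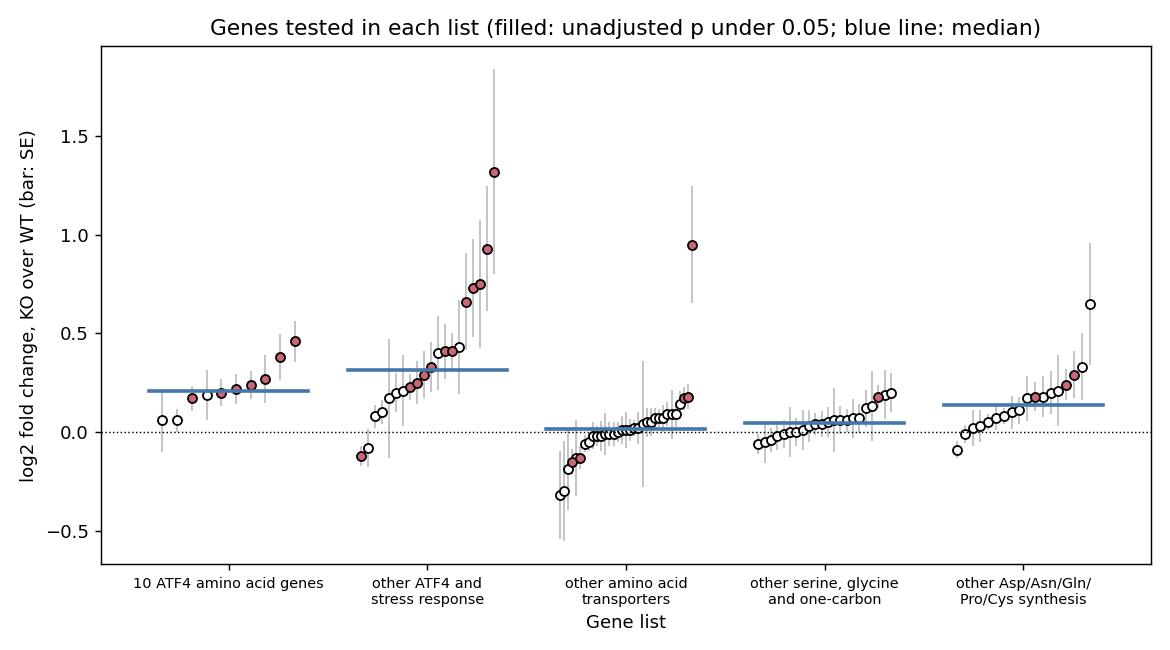
Log2 fold change of KO over WT with its SE for each tested gene in the 5 lists, sorted within a list, filled where the unadjusted p-value is under 0.05, with each list's median as a blue line. The 10 members lie between 0.06 and 0.46 with a median of 0.209, and the 33 other transporters are spread on both sides of 0 with a median of 0.014.

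Cell type markers were set beside these results, because serine enzymes are rich in astrocytes and Slc7a5 in endothelium. The 9 astrocyte markers summed to 5310 to 5500 CPM in WT and 5150 to 5390 in KO, with 3 higher and 1 lower at an unadjusted p-value under 0.05, against 4.54% and 3.38% of all genes. Slc1a2, a glutamate carrier, made up most of that sum, at 3440 to 3640 CPM in WT and 3190 to 3540 in KO. With the genes weighted equally, the mean log2 deviation from the average of the 6 libraries was -0.043 to 0.01 in WT and 0.007, -0.035 and 0.097 in KO, so KO library 3 was the highest. Gfap, which reactive astrocytes make more of, was at 115 to 133 CPM in WT and at 140, 128 and 248 in KO, and its log2 fold change of 0.45 was 0.08 without KO library 3. It was singled out after its values were seen. The markers Aldh1l1, Slc1a3 and Sox9 were also highest of the 6 libraries in KO library 3, and 3 others were lowest there. Of those lowest there, Aqp4, a water channel, was at 197 to 220 CPM in WT and at 185, 195 and 175 in KO, without overlap. The others lowest there were Slc1a2 and the gap junction gene Gja1. The 8 endothelial markers summed to 324 to 334 CPM in WT and 329 to 383 in KO, with 1 higher, against 4.54% of all genes. That gene, the glucose carrier Slc2a1, was at 129 CPM in KO library 2 and at 60.0 to 73.8 CPM in the other libraries. With the genes weighted equally, the endothelial mean log2 deviation was -0.049 to 0.003 in WT and -0.033, 0.013 and 0.091 in KO. KO library 3 was the highest there too.

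The 8 choroid plexus markers summed to 325 to 380 CPM in WT and 384 to 459 in KO, most of it Ttr, the thyroid hormone carrier, at 263 to 316 and 320 to 384 CPM. All 8 had a positive fold change and 3 were higher at an unadjusted p-value under 0.05, against 50.1% and 4.54% of all genes. With the genes weighted equally the groups overlapped, at -0.12 to -0.066 in WT and 0.154, 0.21 and -0.081 in KO, where library 3 lay within the WT range. Meningeal fibroblast markers summed to 92.6 to 105 CPM in WT and 83.8 to 104 in KO, oligodendrocyte markers to 4140 to 4570 and 3570 to 4270, microglia markers to 203 to 251 and 195 to 236, and neuron markers to 3720 to 3890 and 3570 to 3840. Blood markers summed to 98.3 to 135 CPM in WT and to 222, 88.5 and 164 in the KO libraries. Every marker of every list was detected, and the astrocyte, oligodendrocyte and neuron lists had the highest sums, as brain tissue has. The part of these cell types in the members' values was not tested.

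The genes whose pattern over the 6 libraries was most like the mean of the members were sought among 11629 protein-coding genes with a mean of at least 5 CPM. The closest 5 by Pearson's r were Wwp2 (0.991), Snf8 (0.990), Ltbr (0.989), Pdcd2l (0.984) and Nemp1 (0.983). Their log2 fold changes were 0.10, 0.09, 0.27, 0.24 and 0.07, and each was highest in KO library 3. With 6 libraries and so many genes, high values of r arise readily, and they are given as a description.

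**Figure D4:**
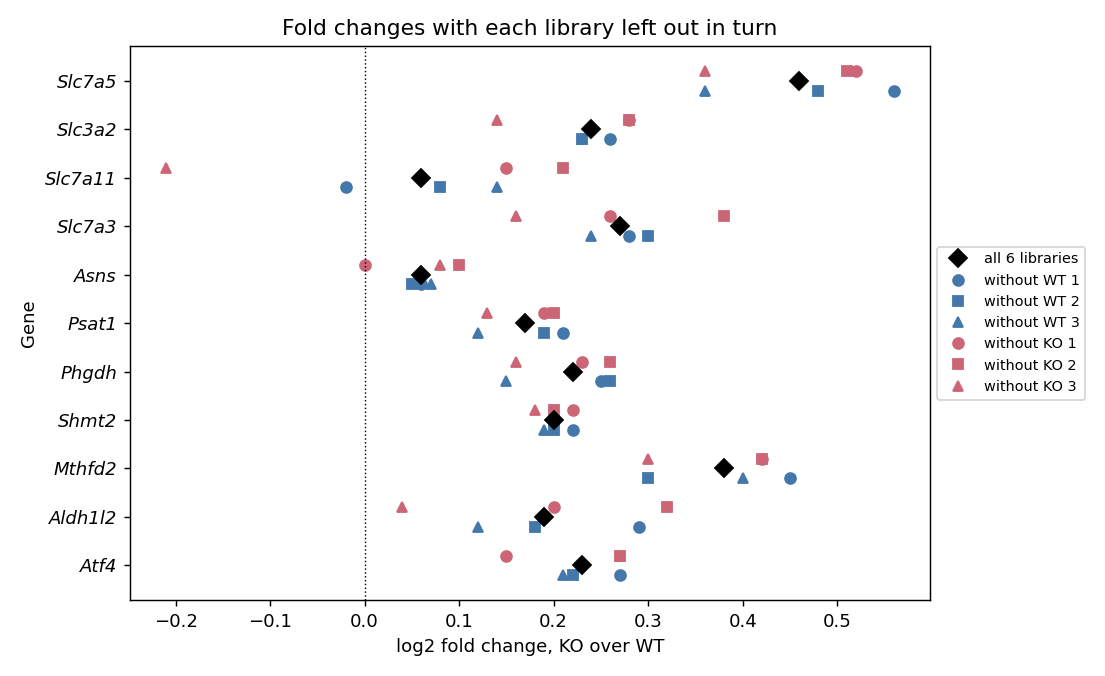
Log2 fold change of KO over WT for the 10 genes and Atf4 with all 6 libraries (black diamonds) and with each WT (blue) or KO (red) library left out. Slc7a5 stays between 0.36 and 0.56, whereas Slc7a11 runs from -0.21 to 0.21 and Aldh1l2 from 0.04 to 0.32.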

How the data were processed

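The authors deposited 1 table of whole-number read counts per gene and library, not normalized, in the layout of STAR's gene counts; cutadapt 1.9.1 and STAR 2.7.0f are named in the submitters' processing notes. Per the labels' protocols, RNA over 200 bp was made into TruSeq total RNA libraries. The genome build is not given in the sources used here. The tables list the 55450 genes of GENCODE M21 (GRCm38), which gave names, positions and exon lengths. The column with 94.6% to 94.8% of stranded counts was used; reads mapping to several places are not counted, and rows that name no gene were left out.

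Counts were tested in R 4.3.3 with edgeR 4.0.16 (filterByExpr, TMM, quasi-likelihood test, genotype as sole factor, 6 libraries), with Benjamini-Hochberg adjustment over 21237 genes. The SE is the fold change divided by the root of F. CPM uses TMM-scaled totals. The common biological coefficient of variation was 7.13%, and no replicate pair agreed within sampling noise (chi-square per degree of freedom 4.08 to 8.69). On data simulated from these libraries with 200 of 21237 genes changed, the test recovered 2% of changes of 0.25 on the log2 scale, 52% of 0.5 and 83.5% of 1. Of the calls made there, 42.9%, 3.70% and 7.73% were false.

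The members and gene lists were chosen with earlier results of these data known. All members were named; from each list, the 3 genes with the smallest p-value, any gene past the threshold and the gene with the lowest fold change were named; other genes were chosen after their values were seen. Single-gene values that this rule would give for 2 listed genes are left out, while both genes stay in the fits and counts. Alternatives were counts without regard to strand, scaling by DESeq2 size factors or by total counts, no filter, a mean count of at least 50, DESeq2 1.42.0, limma-voom (limma 3.58.1), a replicate block, GC correction, both together, and leaving out each library. Promoter sequences come from RefSeq (GRCm38.p6).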

Additional observations from a re-analysis of the deposited data

How the results depend on the processing

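The median log2 fold change of the 10 members stayed positive, from 0.185 to 0.214 over the 10 alternatives that kept all libraries and from 0.147 (without KO library 3) to 0.272 (without KO library 2) with 1 library left out. The number of members higher at an unadjusted p-value under 0.05 ranged from 4 to 8. After adjustment 0 members passed in 14 of the 16 alternatives; without a filter on low counts 2 passed, Slc7a5 (adjusted p = 5.34e-12) and Slc3a2 (adjusted p = 0.00346), and in DESeq2 1 passed, Slc7a5. Over its alternatives the adjusted p-value of Slc7a5 ran up to 1. Among all genes, 2 were called by edgeR and 298 without a filter, where more genes were tested. DESeq2 called 26, the replicate block 4, and from 2 to 5 were called with 1 library left out. The cause was not tested. DESeq2 gave no adjusted p-value for 5 members and for Trmt1l.

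With 1 library left out Slc7a11 ranged from -0.21 (without KO library 3; -0.022 without WT library 1) to 0.21, Asns from -0.0036 (without KO library 1) to 0.1, and the median of other amino acid transporters from -0.002 (without KO library 2) to 0.027. GC correction lowered Phgdh and Shmt2 by over 1.5 times, to 0.14 and 0.12, and raised Slc7a11 from 0.06 to 0.13. Slc7a11 fell to 0.03 with limma-voom and to 0.03 with the replicate block. With the replicate block and GC correction together, 4 members were higher at an unadjusted p-value under 0.05. Same-numbered libraries deviated from their group means with correlations of 0.059, -0.065 and -0.066 across genes. Differently numbered libraries were not compared in this way, so these values cannot decide whether the numbers pair libraries. With the replicate block the members' median was 0.209, and 0 members passed. Differences of 0.25 in single genes were mostly not detectable at this depth and number of libraries.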
